A study of Arabidopsis thaliana with 9 samples.

Results

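The genes of the Calvin–Benson cycle and of photorespiration were examined in shoots of *Arabidopsis thaliana* lines with an insertion in *VTC2* or *VTC3* and of their wild type. The 37 genes were chosen by their known function: 24 encode enzymes or regulators of the Calvin–Benson cycle in the chloroplast, and 13 encode enzymes of photorespiration. All 37 were found by gene identifier among the 28642 genes of the table, and all 37 passed the filter on low counts that left 17388 genes for testing. The comparison asks whether transcripts of carbon fixation and of its repair pathway differ when ascorbate metabolism is disturbed. There were 3 libraries of each genotype: *vtc2-4*, a line with a T-DNA insertion in exon 3 of *VTC2* (a gene of ascorbate biosynthesis); *vtc3-3*, a line with a T-DNA insertion in exon 7 of *VTC3* (which encodes a predicted kinase and phosphatase); and the wild type, ecotype Col-0. Each mutant was 1 insertion line, so a genotype cannot be told apart from any other change its line carries. All seedlings were 2 weeks old and were grown on agar with 1% sucrose, in days with 16 h of light. They were then kept in darkness for 2 d and lit for 6 h at 100 µmol photons per square metre and second. The wild type was therefore also sampled after the shift. RNA-seq of whole shoots counts cDNA reads per gene, and fewer cells of a type cannot be told apart from less RNA per cell.

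In the Calvin–Benson cycle, Rubisco fixes CO2 onto ribulose bisphosphate, the product is reduced with ATP and NADPH, and most of the carbon is used to regenerate the acceptor. Rubisco also reacts with oxygen, and photorespiration recovers carbon from the resulting 2-phosphoglycolate through a route that passes from the chloroplast to the peroxisome and the mitochondrion and back. Transcripts of both pathways are known for their abundance in green tissue, and several of the chloroplast enzymes are switched on by light through thioredoxins.

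The libraries held 4399733 to 7567492 gene reads each, and 5.58% to 5.97% of them fell on the 37 genes in 8 libraries, against 3.51% in wild-type replicate 1. The targeted genes followed the labels: *VTC2* had 47, 51, and 37 reads in *vtc2-4* against 2842, 3897, and 4500 in the wild type, and *VTC3* had 33, 20, and 12 reads in *vtc3-3* against 75, 95, and 110 in the wild type. The 5 shoot markers, all light-harvesting genes, had at least 6227 reads in every library. Of 6 root markers, *PYK10* (a root β-glucosidase) had 578 to 1016 reads and the other 5, which mark root hairs, had 0 to 2 reads. Wild-type replicate 1 stood apart: its mean correlation with the other libraries across genes was 0.908, against at least 0.971 for each of the others, and the share of intron reads within the 37 genes was 0.927%, against 0.408% to 0.491%. It is one of only 3 wild-type libraries, so a value without it is named as such wherever it is used.

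The 4 nuclear *RBCS* genes encode the small subunit of Rubisco and are the most abundant of the 37. *RBCS1B*, *RBCS2B*, and *RBCS3B* are close copies of one another (94.1% to 97.3% identical over the coding sequence) and *RBCS1A* is further from them, which matters for how reads can be assigned to each, so the same 90-base stretch of their coding sequences is shown here (RefSeq, TAIR10.1, coding bases 364 to 453 of *RBCS1A*, 5′ to 3′, each on the minus strand, *RBCS1A* on chromosome 1 and the others on chromosome 5). Capitals mark bases that differ from *RBCS1A*.
RBCS1A: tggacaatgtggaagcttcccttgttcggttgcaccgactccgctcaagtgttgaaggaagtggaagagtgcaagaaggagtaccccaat
RBCS1B: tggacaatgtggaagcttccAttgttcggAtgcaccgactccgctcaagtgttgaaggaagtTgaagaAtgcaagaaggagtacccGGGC
RBCS2B: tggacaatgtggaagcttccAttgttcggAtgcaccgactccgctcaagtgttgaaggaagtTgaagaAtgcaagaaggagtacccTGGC
RBCS3B: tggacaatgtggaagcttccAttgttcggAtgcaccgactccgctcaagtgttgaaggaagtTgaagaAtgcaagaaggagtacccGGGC
*RBCS1B*, *RBCS2B*, and *RBCS3B* each differed from *RBCS1A* at 8 of the 90 bases. The stretch was picked for having the most variable bases among gap-free stretches where *RBCS1B* and *RBCS3B* are identical. Its differences are therefore not typical of the coding sequence. Over their whole coding sequences the identity to *RBCS1A* was 87.7% to 90.1%, whereas *RBCS1B* and *RBCS3B* share an identical run of 230 bases. In the deposited gene counts, 68.7% of the *RBCS1B* reads and 74.6% of the *RBCS3B* reads mapped to 1 place, against 98.2% for *RBCS2B* and nearly all for *RBCS1A*. The split of reads between *RBCS1B* and *RBCS3B* is therefore uncertain.

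Levels per length, in RPKM (exon reads divided by exon length and by the library's gene reads), spanned 3 orders of magnitude. Averaged over the 8 libraries without wild-type replicate 1, *RBCS1A* led with 9490.1 RPKM, followed by *RBCS3B* with 5201 RPKM, *RBCS2B* with 3763 RPKM, *RBCS1B* with 2886 RPKM, and Rubisco activase (*RCA*) with 2612 RPKM. At the other end were *TKL2*, a second plastid transketolase, with 10.3 RPKM and *CP12-3*, the least expressed of 3 genes for a small regulator, with 8.76 RPKM. The most abundant photorespiratory transcript was *AGT1* (serine:glyoxylate aminotransferase) with 1279 RPKM. The 8 libraries were close to each other: the median coefficient of variation was 5.37% for the 37 genes and 10.8% for all genes tested, with median counts of 5820 and 133 reads per library. Wild-type replicate 1 was the lowest of the 9 libraries for 28 of the 37 genes and the highest for 6.

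**Figure D1:**
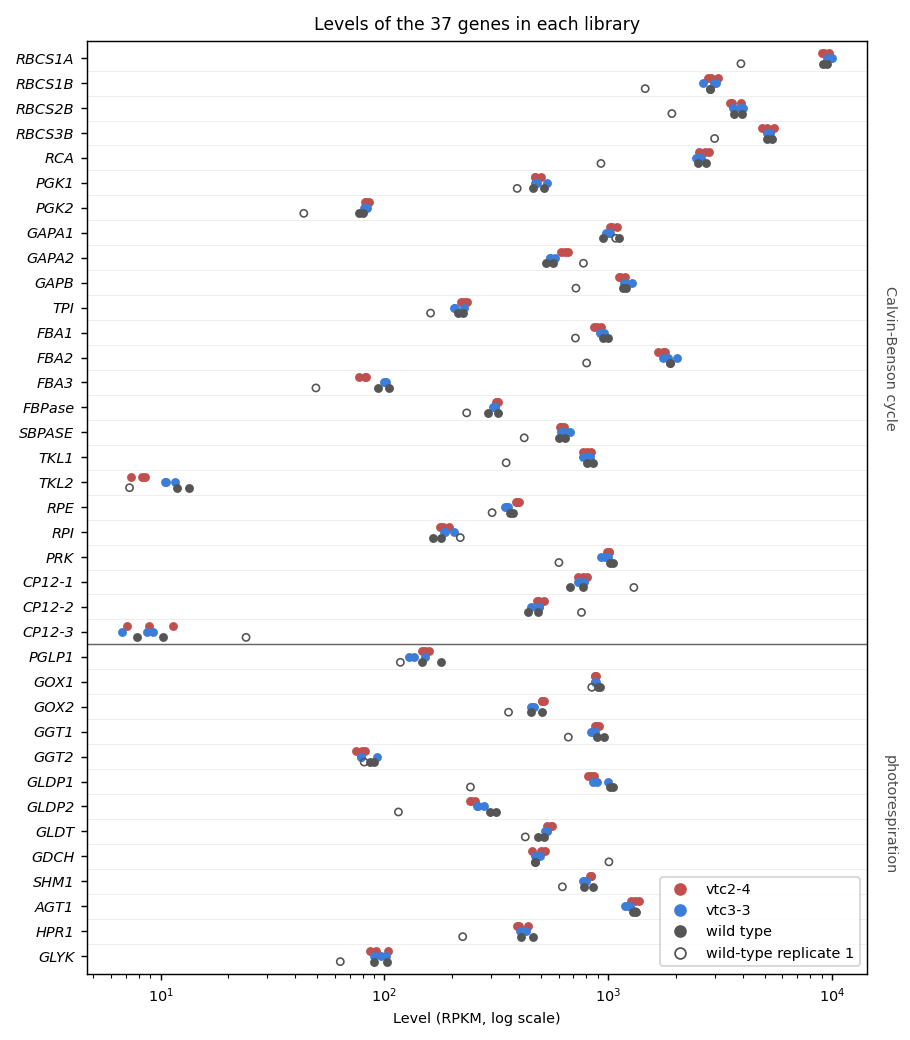
Level of each of the 37 genes (RPKM, log scale) in each library of *vtc2-4*, *vtc3-3*, and the wild type, 1 circle a library, with wild-type replicate 1 as an open circle. The filled circles of a gene lie close together, while the open circle is the lowest of the 9 for 28 genes and the highest for 6.

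With all 9 libraries, none of the 37 genes passed the threshold in *vtc2-4* or *vtc3-3* against the wild type, or in *vtc3-3* against *vtc2-4* (adjusted p under 0.05 over all genes tested, edgeR's quasi-likelihood test, used for every adjusted p here unless another tool is named). DESeq2 also called 0 of the 37 in each comparison, and 0 had an unadjusted p under 0.05 in edgeR, against 9.90%, 6.23%, and 5.10% of all genes tested. Of all genes tested, 0.598% passed the threshold in *vtc2-4* against the wild type, 0.023% in *vtc3-3* against the wild type, and 0.351% in *vtc3-3* against *vtc2-4*. The median log2 fold change of the 37 genes was 0.14 in *vtc2-4* and 0.11 in *vtc3-3*, against −0.01 and −0.00 for all genes tested, and 28 and 27 of the 37 were above 0. These medians moved with wild-type replicate 1: without it they were −0.02 and −0.05, with 17 and 14 genes above 0. Both comparisons share the wild-type libraries.

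The precision also moved with this library. The median standard error (SE) of a log2 fold change in *vtc2-4* was 0.182 with all 9 libraries and 0.0593 without wild-type replicate 1. With all 9 libraries, the 95% interval of 21 genes in *vtc2-4*, of 20 in *vtc3-3*, and of 26 in *vtc3-3* against *vtc2-4* lay within a 1.5-fold change in either direction. Without wild-type replicate 1 it did so for 36, 36, and 35 genes, and all 37 lay within a 2-fold change in each comparison. That fit has only 2 wild-type libraries.

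Without wild-type replicate 1, 5 of the 37 genes passed the threshold in *vtc2-4* against the wild type, where 6.05% of all genes tested did so. *GAPA2* was higher, among 3.03% of all genes, and *TKL2*, *GLDP1*, *GLDP2*, and *FBA3* were lower, among 3.01%. In *vtc3-3* against the wild type none of the 37 passed, and 0.681% of all genes did. An unadjusted p under 0.05 was found for 6 of the 37 there (16.2%), against 8.87% of all genes. In *vtc2-4* against the wild type it was found for 8 (21.6%), against 17.8% of all genes. Between the mutants it was found for 6 (16.2%), against 19.0% of all genes. In *vtc3-3* against *vtc2-4*, 4 of the 37 passed, where 6.76% of all genes did: *FBA3* and *TKL2* were higher, among 3.15%, and *GAPA2* and *RPE* were lower, among 3.6%. The 5 and 4 genes are 13.5% and 10.8% of the 37, above the shares of all genes, which had a median of 133 reads per library against 5820 for the 37, and whether that accounts for the gap was not tested.

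**Figure D2:**
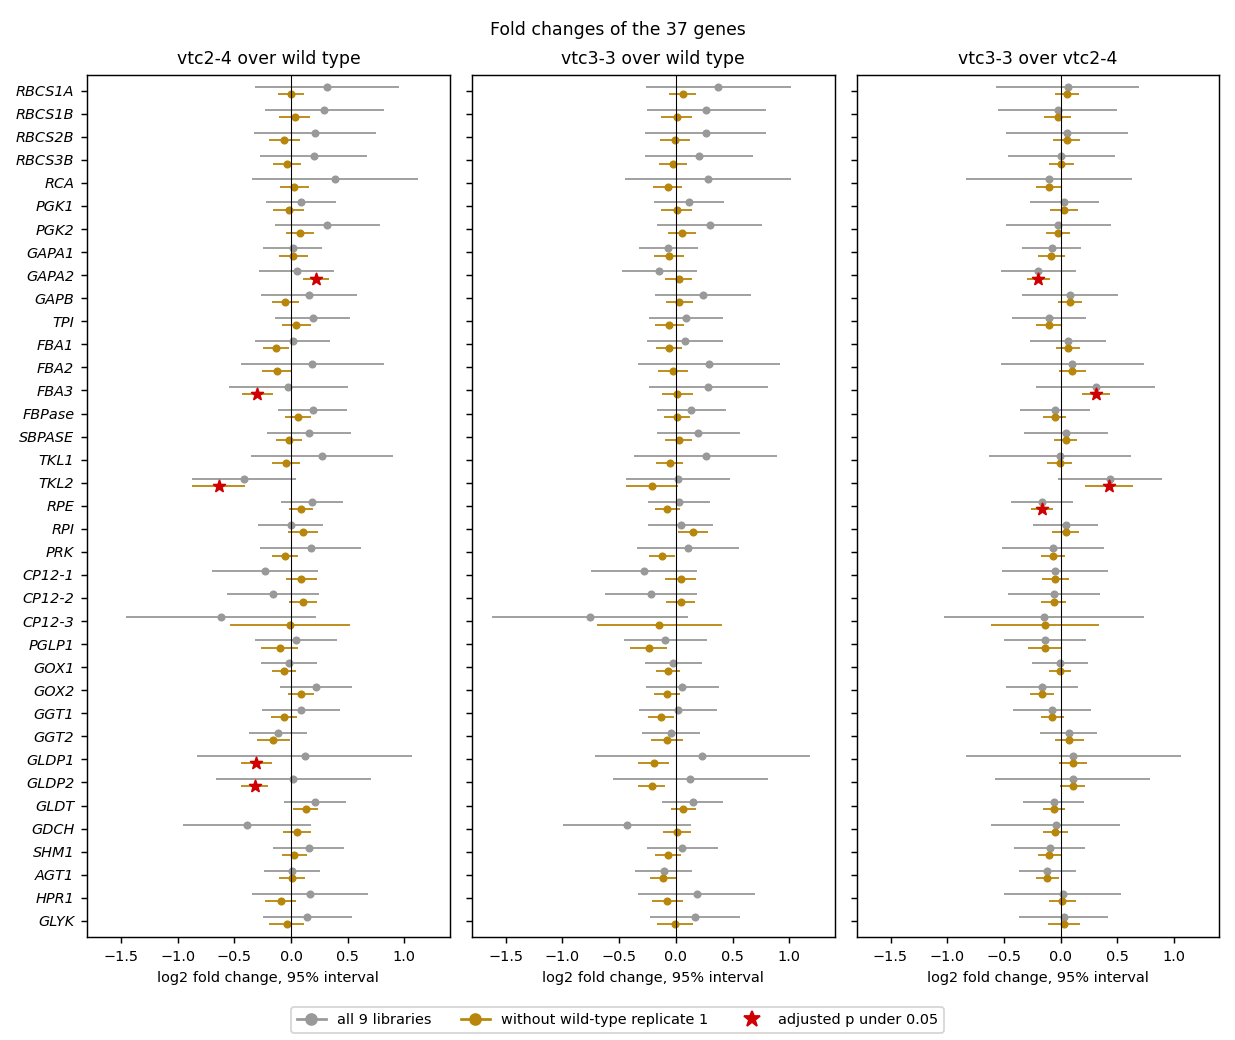
Log2 fold changes of the 37 genes with their 95% intervals in the 3 comparisons, with all 9 libraries (grey) and without wild-type replicate 1 (gold), where a red star marks an adjusted p under 0.05. The grey intervals all miss the threshold, and the gold ones carry 5 stars for *vtc2-4* over the wild type, 0 for *vtc3-3* over the wild type, and 4 for *vtc3-3* over *vtc2-4*.

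The deviation of wild-type replicate 1 was uneven among the 37 genes. Expressed as log2 counts, scaled by library size, relative to the median over the remaining 8 libraries, it was −1.90 for *GLDP1*, −1.50 for *RCA*, −1.30 for *RBCS1A*, and −1.25 for *TKL1*, but 1.37 for *CP12-3*, 1.05 for *GDCH* (the H-protein of glycine decarboxylase), and 0.75 for *CP12-1*. Across all genes tested, the deviations in this library correlated with log2 exon length at r = −0.559, and those in the other 8 libraries at −0.031 to 0.161. Across the 37 genes, which are not independent replicates, r was −0.553 in wild-type replicate 1, and −0.481 to 0.650 in the other 8 libraries. Length alone did not order them: *GAPA2* (1551 bases) deviated by 0.40 and *FBA2* (1522 bases) by −1.21, and the short *RBCS* genes (808 to 1025 bases) were low. What set this library apart was not tested.

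**Figure D3:**
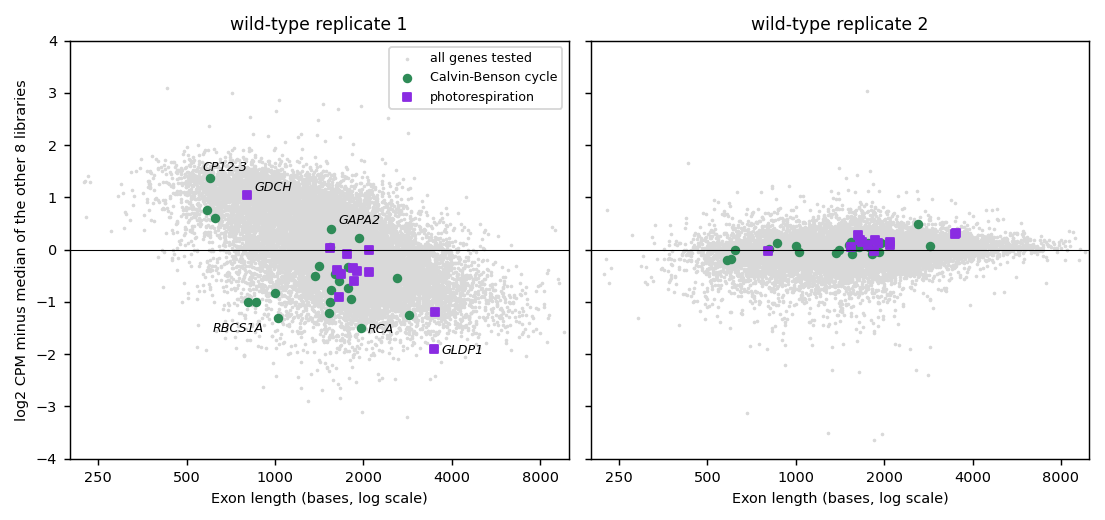
Deviation of each gene in wild-type replicate 1 (left) and wild-type replicate 2 (right), on the log2 scale and relative to the remaining 8 libraries, against exon length in bases on a log scale, with all genes tested in grey. The long genes *GLDP1* and *RCA* sit low on the left, at −1.90 and −1.50, and the short genes *CP12-3* and *GDCH* sit high, at 1.37 and 1.05. On the right, r over the 37 genes is 0.650, with *GLDP1* at 0.30 and *GLDP2* at 0.31.

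Among the genes of carboxylation, no *RBCS* gene passed the threshold in any comparison. *RBCS1A* had 9700.2, 9215, and 9048 RPKM in *vtc2-4*, 9526, 9982, and 9847 RPKM in *vtc3-3*, and 3918, 9147, and 9455 RPKM in wild-type replicates 1, 2, and 3. In RPKM the *vtc2-4* libraries overlapped with wild-type replicates 2 and 3, and the *vtc3-3* libraries were slightly above both. In the normalized counts used for testing, the *vtc3-3* libraries overlapped with wild-type replicate 3. Only wild-type replicate 1 was far from the rest. Without that library, *RBCS1A* had log2 fold changes of 0.00 (SE 0.056, adjusted p = 0.997) in *vtc2-4* and 0.06 (SE 0.056, adjusted p = 0.838) in *vtc3-3*. With all 9 libraries they were 0.32 (SE 0.28, adjusted p = 0.632) and 0.38 (SE 0.28, adjusted p = 0.634) (edgeR). *RBCS2B*, whose reads were nearly all unique, had 3942, 3497, and 3568 RPKM in *vtc2-4*, 3614, 3988, and 3884 RPKM in *vtc3-3*, and 1926, 3948, and 3666 RPKM in wild-type replicates 1, 2, and 3. Apart from wild-type replicate 1, all genotypes overlapped. *RBCS3B* had 5501, 5106, and 4854 RPKM in *vtc2-4*, 5224, 5288, and 5109.7 RPKM in *vtc3-3*, and 2989, 5407, and 5119 RPKM in wild-type replicates 1, 2, and 3. *RBCS1B* had 3082, 2787, and 2876 RPKM in *vtc2-4*, 2644, 2977, and 3031 RPKM in *vtc3-3*, and 1463, 2852, and 2839 RPKM in wild-type replicates 1, 2, and 3. *RCA*, which encodes the chaperone that frees inhibited Rubisco sites, had 2718, 2812, and 2539 RPKM in *vtc2-4*, 2468, 2510.0, and 2589 RPKM in *vtc3-3*, and 928, 2742, and 2519 RPKM in wild-type replicates 1, 2, and 3. For *RBCS1B*, *RBCS3B*, and *RCA* both mutants overlapped with wild-type replicates 2 and 3.

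In the reduction phase, GAPDH of the chloroplast is built from subunits of *GAPA1*, *GAPA2*, and *GAPB*. *GAPB* had 1186, 1116, and 1129 RPKM in *vtc2-4*, 1173, 1273, and 1198 RPKM in *vtc3-3*, and 718, 1199, and 1161 RPKM in wild-type replicates 1, 2, and 3, and only wild-type replicate 1 lay outside the others. *GAPA2* (AT1G12900, chromosome 1, from 4392450 to 4394400 in the table's coordinates, whose build is not named) had 661, 616, and 639 RPKM in *vtc2-4*, 551, 549, and 581 RPKM in *vtc3-3*, and 775, 568, and 527 RPKM in wild-type replicates 1, 2, and 3. All *vtc2-4* libraries were above wild-type replicates 2 and 3, but wild-type replicate 1 was the highest of the 9, and all *vtc3-3* libraries were below all *vtc2-4* libraries. Without wild-type replicate 1 the log2 fold change of *GAPA2* was 0.22 (SE 0.055, adjusted p = 0.0192) in *vtc2-4* and −0.20 (SE 0.049, adjusted p = 0.0172) in *vtc3-3* against *vtc2-4* (edgeR), and with all 9 libraries it was 0.05 (SE 0.15, adjusted p = 0.877) and −0.20 (SE 0.15, adjusted p = 1). Phosphoglycerate kinase (*PGK1*, *PGK2*), which precedes GAPDH, averaged 489 and 81.8 RPKM over the 8 libraries and did not pass the threshold in any comparison, with all 9 libraries or without wild-type replicate 1. *GAPA1*, at 1030.3 RPKM, did not pass either.

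Of the 11 genes of regeneration, 3 carried the calls. *TKL2* (AT2G45290, chromosome 2, from 18672682 to 18675906) had 8.31, 7.38, and 8.56 RPKM in *vtc2-4*, 10.6, 10.5, and 11.6 RPKM in *vtc3-3*, and 7.27, 13.4, and 11.9 RPKM in wild-type replicates 1, 2, and 3, from 105 to 210 reads per library. The *vtc2-4* libraries lay below the *vtc3-3* libraries and below wild-type replicates 2 and 3, but wild-type replicate 1 was the lowest of the 9. Without wild-type replicate 1, *TKL2* had log2 fold changes of −0.64 (SE 0.11, adjusted p = 0.000817) in *vtc2-4*, −0.21 (SE 0.11, adjusted p = 0.616) in *vtc3-3*, and 0.43 (SE 0.10, adjusted p = 0.0112) in *vtc3-3* against *vtc2-4* (edgeR). With all 9 libraries they were −0.42 (SE 0.21, adjusted p = 0.52) in *vtc2-4*, 0.02 (SE 0.21, adjusted p = 0.971) in *vtc3-3*, and 0.43 (SE 0.21, adjusted p = 1) in *vtc3-3* against *vtc2-4*. Its abundant partner *TKL1*, which codes for the main plastid transketolase, did not pass in any comparison, nor did *TPI* (triose phosphate isomerase), *FBA1*, *FBA2*, *FBPase* (fructose bisphosphatase), or *RPI* (ribose-5-phosphate isomerase), which averaged 184 to 1829.8 RPKM over the 8 libraries.

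*FBA3* (AT2G01140, chromosome 2, from 94811 to 96655), the least abundant of 3 plastid aldolase genes, had 77.0, 82.0, and 83.0 RPKM in *vtc2-4*, 101, 100.4, and 100.1 RPKM in *vtc3-3*, and 49.5, 93.4, and 105 RPKM in wild-type replicates 1, 2, and 3. All *vtc3-3* libraries were above all *vtc2-4* libraries, and wild-type replicates 2 and 3 lay above *vtc2-4*. Its log2 fold change in *vtc3-3* against *vtc2-4* was 0.31 (SE 0.058, adjusted p = 0.00188) without wild-type replicate 1 and 0.31 (SE 0.23, adjusted p = 1) with it (edgeR), and in *vtc2-4* against the wild type −0.30 (SE 0.065, adjusted p = 0.0066) and −0.03 (SE 0.24, adjusted p = 0.964). *RPE* (AT5G61410, chromosome 5, from 24683606 to 24686105), a ribulose-phosphate 3-epimerase, had 393, 386, and 400.1 RPKM in *vtc2-4*, 354, 347, and 357 RPKM in *vtc3-3*, and 303, 364, and 375 RPKM in wild-type replicates 1, 2, and 3. The *vtc2-4* libraries of *RPE* were above all others. Its log2 fold change in *vtc3-3* against *vtc2-4* was −0.16 (SE 0.046, adjusted p = 0.034) without wild-type replicate 1 (edgeR). With all 9 libraries it was −0.16 (SE 0.12) and did not pass. In *vtc2-4* against the wild type it was 0.09 (SE 0.052, adjusted p = 0.4) without that library and 0.19 (SE 0.12, adjusted p = 0.561) with it. In RefSeq's annotation *FBA3* overlaps a neighbour on the same strand by 27 bases, and 9 of the 37 genes overlap a neighbour, by at most 235 bases (*RPI*). For *FBA3* and *GAPA1*, which overlap on the same strand, reads of both cannot be told apart there even with strand. For the others they cannot be told apart without it.

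**Figure D4:**
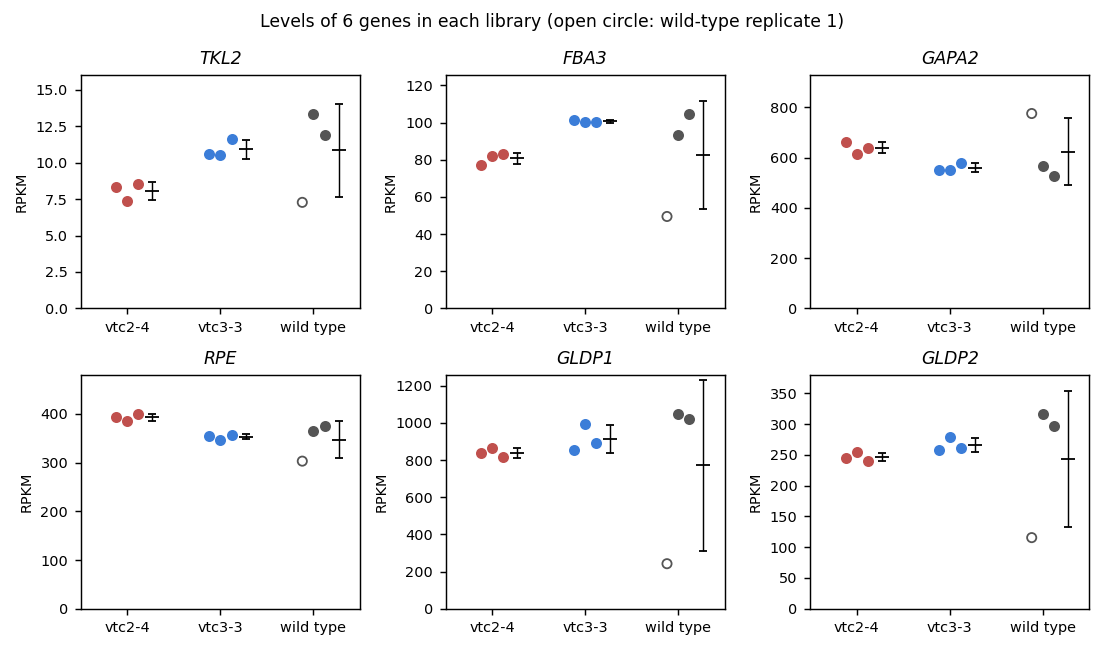
Level (RPKM, axes from 0) of 6 genes in each library of *vtc2-4*, *vtc3-3*, and the wild type, left to right, with the mean and SD of the 3 libraries as a bar beside them and wild-type replicate 1 as an open circle. *TKL2* and *FBA3* are lower in all *vtc2-4* libraries than in all *vtc3-3* libraries, and the open circle is the lowest library for *TKL2*, *FBA3*, *RPE*, *GLDP1*, and *GLDP2* and the highest for *GAPA2*.

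*SBPASE*, a sedoheptulose bisphosphatase specific to the cycle, had 634, 608, and 618 RPKM in *vtc2-4*, 616, 642, and 672 RPKM in *vtc3-3*, and 422, 644, and 606 RPKM in wild-type replicates 1, 2, and 3. *PRK* (phosphoribulokinase), which makes the CO2 acceptor, had 1012, 1006, and 984 RPKM in *vtc2-4*, 924, 995, and 967 RPKM in *vtc3-3*, and 603, 1053, and 1018 RPKM in wild-type replicates 1, 2, and 3. For *SBPASE* the mutants overlapped with wild-type replicates 2 and 3, whereas for *PRK* all mutant libraries were below them. The log2 fold change of *PRK* without wild-type replicate 1 was −0.05 (SE 0.055, adjusted p = 0.703) in *vtc2-4* and −0.12 (SE 0.055, adjusted p = 0.538) in *vtc3-3* (edgeR). With all 9 libraries the direction turned, to 0.17 (SE 0.20, adjusted p = 0.696) and 0.11 (SE 0.20, adjusted p = 0.81). CP12 proteins bind GAPDH and PRK in the dark, and 2 of the 3 genes were abundant. *CP12-1* had 803, 775, and 737 RPKM in *vtc2-4*, 782, 739, and 733 RPKM in *vtc3-3*, and 1302, 672, and 773 RPKM in wild-type replicates 1, 2, and 3, and *CP12-2* had 516, 493, and 481 RPKM in *vtc2-4*, 492, 454, and 492 RPKM in *vtc3-3*, and 759.9, 483, and 439 RPKM in wild-type replicates 1, 2, and 3. *CP12-3*, with 21 to 79 reads per library, had 11.3, 7.12, and 8.89 RPKM in *vtc2-4*, 9.23, 6.76, and 8.70 RPKM in *vtc3-3*, and 24.1, 7.88, and 10.2 RPKM in wild-type replicates 1, 2, and 3. For each of these 3 short genes the mutants overlapped with wild-type replicates 2 and 3, and wild-type replicate 1 was the highest library.

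Photorespiration starts with *PGLP1*, a 2-phosphoglycolate phosphatase. Its coding sequence of 1089 bases is identical to that of AT5G36790, and only 28 of the 13013 reads on it over all libraries were unique, so its level cannot be told apart from that of its copy. It had 158, 152, and 147 RPKM in *vtc2-4*, 136, 152, and 129 RPKM in *vtc3-3*, and 118, 179, and 147 RPKM in wild-type replicates 1, 2, and 3, with overlap between all genotypes. The next enzyme, glycolate oxidase, is encoded by *GOX1* and *GOX2*. *GOX1* had 874, 886, and 871 RPKM in *vtc2-4*, 873, 884, and 873 RPKM in *vtc3-3*, and 845, 923, and 902 RPKM in wild-type replicates 1, 2, and 3, the narrowest range, relative to its level, among the genes whose values are given by library. *GOX2* had 505, 506, and 517 RPKM in *vtc2-4*, 458, 465, and 453 RPKM in *vtc3-3*, and 359, 507, and 452 RPKM in wild-type replicates 1, 2, and 3, and all *vtc3-3* libraries were below all *vtc2-4* libraries. Its log2 fold change in *vtc3-3* against *vtc2-4* was −0.16 (SE 0.050, adjusted p = 0.0521) without wild-type replicate 1 and −0.16 (SE 0.14, adjusted p = 1) with all 9 libraries (edgeR).

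In the mitochondrion, glycine decarboxylase releases CO2 and ammonia from glycine, and *GLDP1* and *GLDP2* encode its P-protein. *GLDP1* (AT4G33010, chromosome 4, from 15926670 to 15931332) had 837, 866, and 814 RPKM in *vtc2-4*, 853, 996, and 892 RPKM in *vtc3-3*, and 243, 1049, and 1023 RPKM in wild-type replicates 1, 2, and 3. *GLDP2* (AT2G26080, chromosome 2, from 11109003 to 11113828) had 244, 254, and 241 RPKM in *vtc2-4*, 259, 279.7, and 262 RPKM in *vtc3-3*, and 116, 317, and 297 RPKM in wild-type replicates 1, 2, and 3. For both genes all mutant libraries were below wild-type replicates 2 and 3, and wild-type replicate 1 was below all of them. Without wild-type replicate 1 the log2 fold change of *GLDP1* was −0.31 (SE 0.065, adjusted p = 0.00529) in *vtc2-4* and −0.19 (SE 0.065, adjusted p = 0.277) in *vtc3-3*, and that of *GLDP2* was −0.32 (SE 0.057, adjusted p = 0.00118) and −0.21 (SE 0.058, adjusted p = 0.116) (edgeR). With all 9 libraries the directions turned, to 0.12 (SE 0.42, adjusted p = 0.897) and 0.23 (SE 0.42, adjusted p = 0.802) for *GLDP1* and 0.02 (SE 0.31, adjusted p = 0.977) and 0.13 (SE 0.31, adjusted p = 0.85) for *GLDP2*. These are the longest of the 37 genes, with 3478 and 3504 bases of exon, and the fall in *vtc2-4* rests on 2 wild-type libraries. Across all genes tested, deviations correlated with log2 exon length at r = −0.0305 to −0.00117 in the *vtc2-4* libraries, against 0.152 and 0.161 in wild-type replicates 2 and 3, while across the 37 genes r was −0.481 to 0.0767 in the *vtc2-4* libraries, against 0.650 and 0.223 in these wild-type libraries. The part of length in the fall was not tested.

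No other photorespiratory gene passed the threshold in *vtc2-4* or *vtc3-3* against the wild type. *SHM1*, the serine hydroxymethyltransferase that uses the released one-carbon unit, had 841, 835, and 827 RPKM in *vtc2-4*, 782, 775, and 799 RPKM in *vtc3-3*, and 624, 857, and 777 RPKM in wild-type replicates 1, 2, and 3. *HPR1*, the peroxisomal hydroxypyruvate reductase, had 391, 436, and 400.3 RPKM in *vtc2-4*, 404, 416, and 429 RPKM in *vtc3-3*, and 224, 463, and 409 RPKM in wild-type replicates 1, 2, and 3. For *SHM1* all *vtc3-3* libraries were below all *vtc2-4* libraries. Such a lack of overlap between the mutants, in either direction, was found in the normalized counts of 23.5% of all genes tested. The log2 fold change of *SHM1* in *vtc3-3* against *vtc2-4* was −0.10 (SE 0.049, adjusted p = 0.282) without wild-type replicate 1 (edgeR). For *HPR1* all genotypes overlapped. The remaining genes are *GLDT* (the T-protein), *GDCH*, *GGT1* and *GGT2* (glutamate:glyoxylate aminotransferases), *AGT1*, and *GLYK* (glycerate kinase), which averaged from 82.8 RPKM (*GGT2*) to 1279 RPKM (*AGT1*) over the 8 libraries.

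Since both P-protein genes fell in *vtc2-4* without wild-type replicate 1, the 250 bases before their annotated starts are shown (RefSeq, TAIR10.1, minus strand, 5′ to 3′). They lie at chr4:15931423-15931672 for *GLDP1* and chr2:11114292-11114541 for *GLDP2*. Capitals mark a G-box (CACGTG) or an I-box (GATAAG), motifs known from light-regulated promoters and searched on both strands.
GLDP1: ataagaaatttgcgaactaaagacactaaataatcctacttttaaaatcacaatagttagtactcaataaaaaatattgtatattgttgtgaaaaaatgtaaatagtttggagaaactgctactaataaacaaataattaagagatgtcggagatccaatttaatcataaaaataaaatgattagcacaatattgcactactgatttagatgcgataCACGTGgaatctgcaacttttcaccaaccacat
GLDP2: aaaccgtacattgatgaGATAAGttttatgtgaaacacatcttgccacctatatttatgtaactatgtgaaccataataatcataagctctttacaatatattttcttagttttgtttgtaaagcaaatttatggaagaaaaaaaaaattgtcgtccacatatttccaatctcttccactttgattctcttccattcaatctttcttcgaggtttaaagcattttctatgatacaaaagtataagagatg
The *GLDP1* window held 1 G-box and no I-box, and the *GLDP2* window held 1 I-box and no G-box. Over the 37 genes, 7 windows (18.9%) held a G-box, against 6.49% of 27443 such windows of nuclear protein-coding genes in RefSeq, expressed here or not. An I-box was held by 6 (16.2%), against 12.3%. The G-box windows were those of *RBCS2B*, *FBPase*, *TKL2*, *PRK*, *GGT1*, *GGT2*, and *GLDP1*. RefSeq's starts differ from those of the deposited table for some of these genes, and a match is a description of the letters in a window.

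The share of each gene in its family was computed from RPKM. Of the *RBCS* RPKM, *RBCS1A* made up 43.6, 44.7, and 44.5% in *vtc2-4*, 45.3, 44.9, and 45.0% in *vtc3-3*, and 38.1, 42.8, and 44.9% in wild-type replicates 1, 2, and 3. *GLDP2* made up 22.6% to 22.8% of the *GLDP* RPKM in *vtc2-4*, 21.9% to 23.3% in *vtc3-3*, and 32.3%, 23.2%, and 22.5% in wild-type replicates 1, 2, and 3; the *vtc2-4* shares lay between those of wild-type replicates 2 and 3. Of the *TKL* RPKM, *TKL2* made up 0.985, 0.907, and 1.10% in *vtc2-4*, 1.35, 1.25, and 1.42% in *vtc3-3*, and 2.03, 1.54, and 1.46% in wild-type replicates 1, 2, and 3. The *TKL2* shares did not overlap between any 2 genotypes, and wild-type replicate 1 was the highest of the 9. Of the *GOX* RPKM, *GOX2* made up 36.6, 36.4, and 37.2% in *vtc2-4*, 34.4, 34.5, and 34.1% in *vtc3-3*, and 29.8, 35.5, and 33.4% in wild-type replicates 1, 2, and 3, and its *vtc2-4* libraries were above all others. In the exact permutation test over 3 against 3 libraries (two-sided), whose smallest possible p is 0.1, *TKL2* reached p = 0.1 in all 3 comparisons, with an adjusted p of 0.6 over 48 tests. *RBCS1A* reached the same values in *vtc3-3* against the wild type and against *vtc2-4*. So did *GOX2* in *vtc2-4* against the wild type and between the mutants, and *FBA3* between the mutants.

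**Figure D5:**
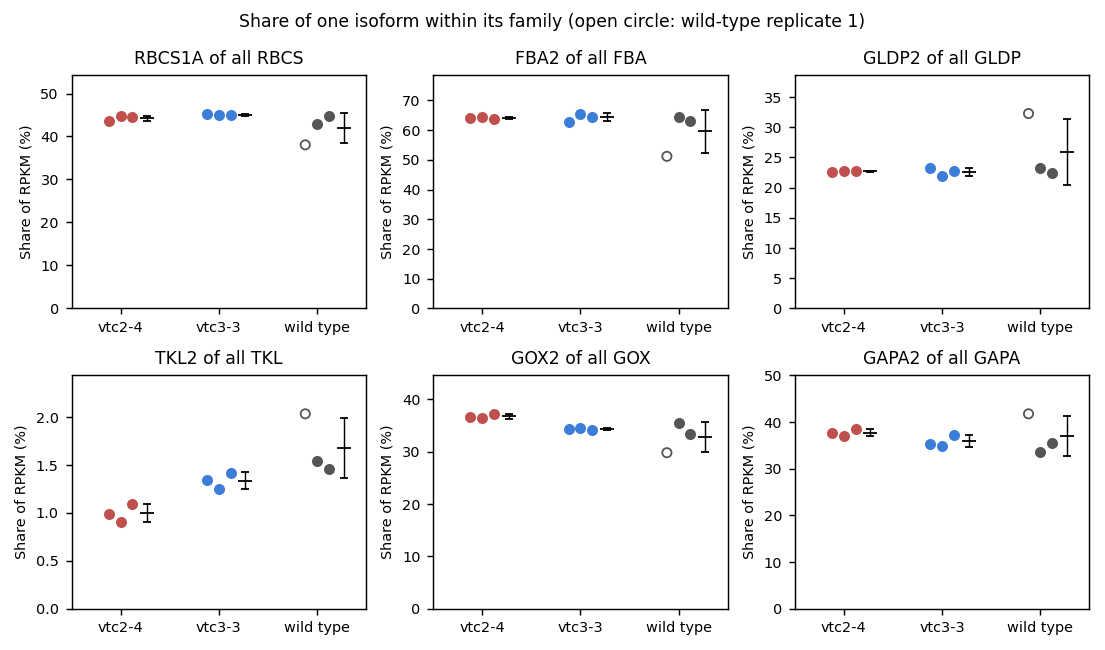
Share of 1 gene in the summed RPKM of its family (%, axes from 0) in each library of *vtc2-4*, *vtc3-3*, and the wild type, left to right, with the mean and SD as a bar and wild-type replicate 1 as an open circle. *TKL2* takes 0.907% to 1.10% in *vtc2-4*, 1.25% to 1.42% in *vtc3-3*, and 1.46% to 2.03% in the wild type.

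Counting genes whose normalized counts do not overlap between genotypes needs no model of the spread. Against the wild type, this count still depends on replicate 1, the lowest of the 9 libraries for 28 of the 37 genes and the highest for 6. Where that library is the lowest, a mutant can only be higher without overlap, and where it is the highest, only lower. For genes set apart from wild-type replicates 2 and 3 alone, the share over all genes tested was not computed. In *vtc2-4* against all 3 wild-type libraries, 3 of the 37 genes did not overlap, *PGK2*, *RPE*, and *GLDT*, all higher in the mutant, against 16.6% of all genes tested. In *vtc3-3* against the wild type 2 did not, *PGK2* (higher) and *AGT1* (lower), against 12.1%. In *vtc3-3* against *vtc2-4*, which uses no wild-type library, 9 did not (24.3%), against 23.5%: *FBA3* and *TKL2* were higher, and *GAPA2*, *FBPase*, *RPE*, *GOX2*, *GLDT*, *SHM1*, and *AGT1* were lower.

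Of 36 further genes around these pathways, 10 for Rubisco assembly, 15 other isoforms, and 11 for transport and reassimilation of carbon and nitrogen, none passed the threshold with all 9 libraries (edgeR). Of all genes tested, 0.598% passed there in *vtc2-4* and 0.023% in *vtc3-3* against the wild type, and 0.351% in *vtc3-3* against *vtc2-4*. Without wild-type replicate 1, the shares of all genes tested were 6.05%, 0.681%, and 6.76% in the same order. In that fit, 1 of the 10 assembly genes was higher in *vtc2-4* and 1 lower: *RbcX1*, an assembly chaperone, at 0.59 (adjusted p = 0.00174), and *RbcX2* at −0.34 (adjusted p = 0.00699). Of the other isoforms, *RPI2* was lower at −0.41 (adjusted p = 0.0012), and of the transport list, *CAT2* (the peroxisomal catalase of leaves) at −0.39 (adjusted p = 0.00204) and *GLU1* (ferredoxin-dependent glutamate synthase) at −0.26 (adjusted p = 0.00423) were lower. *GLU1* was also lower in *vtc3-3*, at −0.29 (adjusted p = 0.0115). The log2 fold changes in *vtc2-4* with all 9 libraries were 0.05 (adjusted p = 0.936) for *RbcX1*, −0.77 (adjusted p = 0.346) for *RbcX2*, −0.19 (adjusted p = 0.665) for *RPI2*, and −0.09 (adjusted p = 0.886) for *CAT2*. For *GLU1* the direction turned, to 0.04 (adjusted p = 0.946) in *vtc2-4* and 0.01 (adjusted p = 0.981) in *vtc3-3*. In *vtc3-3* against *vtc2-4*, *RbcX1* at −0.37 (adjusted p = 0.0179), AT3G48420 at −0.19 (adjusted p = 0.0376), and the triose phosphate translocator gene *APE2* at −0.31 (adjusted p = 0.00049) were lower, against −0.38 (adjusted p = 1), −0.19 (adjusted p = 1), and −0.31 (adjusted p = 1) with all 9 libraries. Among the shoot markers, *LHCA1* at 0.23 (adjusted p = 0.0247), *CAB3* at 0.26 (adjusted p = 0.0259), and *LHCB5* at 0.26 (adjusted p = 0.00551) were higher in *vtc2-4* than in the wild type in the same fit, and *LHCB5* was lower in *vtc3-3* than in *vtc2-4*, at −0.25 (adjusted p = 0.00239). None of these passed with all 9 libraries, where *vtc2-4* had 0.38 (adjusted p = 0.47) for *LHCA1*, 0.43 (adjusted p = 0.456) for *CAB3*, and 0.32 (adjusted p = 0.425) for *LHCB5*. *PYK10*, the only root marker with enough reads, had 0.18 (adjusted p = 0.332) in *vtc2-4* without wild-type replicate 1 and 0.20 (adjusted p = 0.564) with all 9 libraries. The part of tissue composition in the calls above was not tested.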

How the data were processed

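RNA-seq counts of shoots from 9 libraries, 3 each of *vtc2-4*, *vtc3-3*, and the wild type, were analysed. The libraries were sequenced on a MiSeq, and mapping and counting were done by the authors with CLC Genomics Workbench. The genome build, annotation, mapping settings, and use of strand are not given in the sources used here. The deposited counts are raw whole numbers per gene, exon plus intron reads, made by the authors. The deposited RPKM values are exon reads scaled by the authors to exon length and to the gene reads of the library, which the values bear out. Exon length, exon number, position, and uniquely mapped reads are scores and counts given by the authors, as deposited, with 1 added to starts counted from 0. Columns of the authors' own comparisons, fold changes and p-values, were not used. Of 171 per-library columns, 112 were not used.

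Counts were normalized by TMM, filtered with filterByExpr, and tested with the quasi-likelihood method of edgeR 4.0.16 in R 4.3.3. Genotype was the sole term, and the 9 libraries shared 1 fit. Adjustment was by Benjamini–Hochberg over the genes tested in each fit, 17388 in the main fit and 17631 without wild-type replicate 1. Samples are triplicates. The p-values of edgeR set a difference against a spread pooled over all genotypes of a fit and moderated with information from other genes. The degrees of freedom were 9.84 with all 9 libraries and 19.2 without wild-type replicate 1. In these fits the p-values between the mutants therefore also depend on the wild-type libraries. Alternatives were DESeq2 1.42.0, upper-quartile or library-size scaling, no filter, a fit to the 2 genotypes of a comparison alone, the replicate number as a block, unique or exon reads, limma 3.58.1 on log2 RPKM with 1 or 0.1 added, lowess removal (span 0.3) of the length trend in every library, voom with library quality weights, and each library left out in turn. The pipeline was tested on simulated data. The replicate numbers were not used as pairs in the main fit. Deviations of same-numbered libraries correlated at −0.0250 to 0.0897, and those of differently numbered libraries at −0.102 to 0.0843. A weak pairing cannot be told from these values. Values in every library are given for genes past the threshold with all 9 libraries or without wild-type replicate 1 and for 17 set genes, and other lists' genes only where they passed. The members and lists were chosen with earlier results of these data known. Sequences and motifs are from RefSeq TAIR10.1, whose build may not be the authors'. Rubisco's large subunit was not analysed here.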

Additional observations from a re-analysis of the deposited data

How the results depend on the processing

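Leaving out wild-type replicate 1 changed 5, 0, and 4 of the 37 calls in the 3 comparisons, also between the mutants, since the fit shares 1 estimate of the spread. In *vtc2-4* against the wild type, 0 of the 37 genes passed with all 9 libraries (edgeR's quasi-likelihood test), 2 with voom and library quality weights, and 0 to 5 with 1 library left out, of which 5 were without wild-type replicate 1 and 0 without any other. The 2 genes with voom weights are 5.41% of the 37, against 5.43% of all genes tested, and the 5 are 13.5%, against 6.05%. In *vtc3-3* against the wild type the count was 0 under every alternative. In *vtc3-3* against *vtc2-4* it was 0 with all 9 libraries, 5 with only the 2 genotypes compared, 3 with voom weights, and 0 to 4 with 1 library left out, 4 of them without wild-type replicate 1. These are 13.5%, 8.11%, and 10.8% of the 37, against 6.72%, 6.35%, and 6.76% of all genes tested. Over the 21 alternatives, 58 of 63 counts stayed on their side. The 5 that moved came from fits that left out wild-type replicate 1, gave it a low weight (0.0454), or used the 2 mutants alone. Most alternatives kept that library at full weight, so the tally is no separate check on the calls. The direction in *vtc2-4* reversed for *GLDP1* (−0.31 without wild-type replicate 1, to 0.41 without replicate 2) and *GLDP2* (−0.32 without replicate 1, to 0.26 without replicate 2, and −0.31 with voom weights), and the cause was not tested. The values in *vtc2-4* also lay on both sides of 0 for *FBA3* (−0.30 to 0.19) and *GAPA2* (−0.05 to 0.22). The replicate block gave 0 genes in each comparison, as did DESeq2, other scalings, unique reads, exon reads, and log2 RPKM. The length trend removed also left 0. *GOX2* in *vtc3-3* against *vtc2-4* passed only with the 2 genotypes compared (log2 fold change −0.16, adjusted p = 0.044, edgeR). *PGLP1* had too few unique reads to be tested with them. The median log2 fold change of the 37 genes was 0.26 in *vtc2-4* and 0.22 in *vtc3-3* without wild-type replicate 2. Counting error was largest for *CP12-3* (21 to 79 reads per library) and *TKL2* (105 to 210).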
